A study of Mus musculus with 20 samples.

Results

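The streptozotocin (STZ) response of the paraventricular thalamic nucleus (PVT) was set against that of the posterior insular cortex (pIC), gene by gene, as the interaction of region and treatment: the log2 fold change of STZ over control in PVT minus the same in pIC. All 20 libraries of the study entered the comparison, and the genes were the 15975 of 57180 identifiers in the table that were counted well enough in each region on its own. Mice received vehicle or 1 intraperitoneal injection of 200 mg/kg STZ, and tissue was collected at week 7 of this model of painful diabetic neuropathy. Each region had 4 control and 6 STZ libraries of poly(A) RNA from microdissected punches of fresh brain. The labels give no strain, sex or age, and do not say that libraries of a group came from separate mice, so p-values measure the spread between these libraries, which may be partly technical.

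STZ enters pancreatic beta cells through a glucose transporter and kills them, which leaves the animal short of insulin and with high blood glucose. The PVT is a midline thalamic nucleus beside the third ventricle that carries arousal and aversive signals, and the posterior insula is a cortical field for pain and for the state of the body. Interferon-stimulated genes, which run through most of the results here, are switched on by transcription factors that become active after interferon binds its receptor, and glia, neurons and vessels all express some of them at rest.

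Library totals ranged from 17.9 M counts (a PVT control) to 25.5 M (a pIC STZ library), with STZ libraries at 21.7 M or more in PVT and 18.97 M or more in pIC. Summed over a list of thalamus neuron markers, PVT libraries held 792 to 3125 CPM (counts scaled to the size of the library) and pIC libraries 436 to 540, while cortical excitatory neuron markers summed to 692 to 1620 CPM in PVT and 2380 to 3473 in pIC. A list for paraventricular and midline thalamus neurons had overlapping sums, 471 to 822 CPM in PVT and 568 to 743 in pIC, while its mean log2 CPM over 15 tested genes was 3.62 to 4.13 in PVT and 2.89 to 3.66 in pIC. Punch content varied within PVT: PVT STZ replicates 1, 2 and 3 and PVT control replicate 2 had the lowest thalamus neuron scores. Results are also given without these 4, which leaves fewer libraries in both PVT groups. What fewer libraries alone would do to the calls was not tested. PVT control replicate 4 alone held pituitary transcripts at high level, with 11985 CPM of growth hormone (Gh) against at most 2.77 CPM in the other PVT libraries.

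In edgeR, no gene passed the test of the difference itself. With the quasi-likelihood test, with Benjamini-Hochberg adjustment and calls under an adjusted p of 0.05, the interaction called 0% of the 15975 genes and the lowest adjusted p was 0.0648. At an unadjusted p under 0.05 there were 606 genes, of which 431 (2.7%) had the lower STZ effect in PVT and 175 (1.1%) the higher. DESeq2 called 4 genes, all with the lower effect in PVT, limma-voom with quality weights called 0, and edgeR called 3 without PVT control replicate 2 and 1 without pIC STZ replicate 1. The 95% interval of the difference lay within a 2-fold change for 83.3% of genes and within 1.5-fold for 63.0%, so for most genes a difference above 2-fold lay outside the interval, and smaller ones were often not detectable.

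Tested alone, STZ changed 306 genes in PVT (1.92%), of which 246 were lower (1.54%) and 60 higher (0.376%), and 222 genes in pIC (1.39%), of which 151 were lower (0.945%) and 71 higher (0.444%). Both regions called the same 111 genes (0.695% of those tested), which is 36.3% of the PVT calls and 50% of the pIC calls. All 111 had the same sign in both regions, 92 lower (0.576%) and 19 higher, and 0 genes were called with opposite signs. The 195 genes called in PVT alone had a median log2 fold change of -0.49 in PVT and -0.13 in pIC, and the 111 called in pIC alone had -0.28 in pIC and -0.03 in PVT. A call in 1 region only is no test of a difference, and none of these genes passed that test in edgeR with all libraries, while Rarres2, Lbp and Tekt4 passed it in DESeq2. The number of PVT calls moved with single libraries: it was 149 without PVT control replicate 1, 140 without PVT control replicate 4, 199, 184 and 168 without PVT STZ replicates 1, 3 and 4, and 66 without the 4 libraries lowest in thalamus markers. In pIC it was 134, 126 and 139 without control replicates 1, 2 and 4.

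Across the 15975 genes the fold changes of the 2 regions correlated with a Pearson r of 0.52 (Spearman rho 0.45), a description across genes, which are not independent replicates and share their libraries. The labels do not say whether the 2 regions share mice, and what shared mice would add to this likeness was not tested. Among the 417 genes called in either region r was 0.88, and it was 0.81 over the 358 of these outside the interferon-stimulated, GTPase and class I lists. The same sign was seen in 67.9% of all genes, in 93.5% of PVT calls and in 96.4% of pIC calls. The standard error of the STZ effect had a median of 0.110 in PVT and 0.094 in pIC, so the PVT effects were measured somewhat less tightly.

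**Figure D1:**
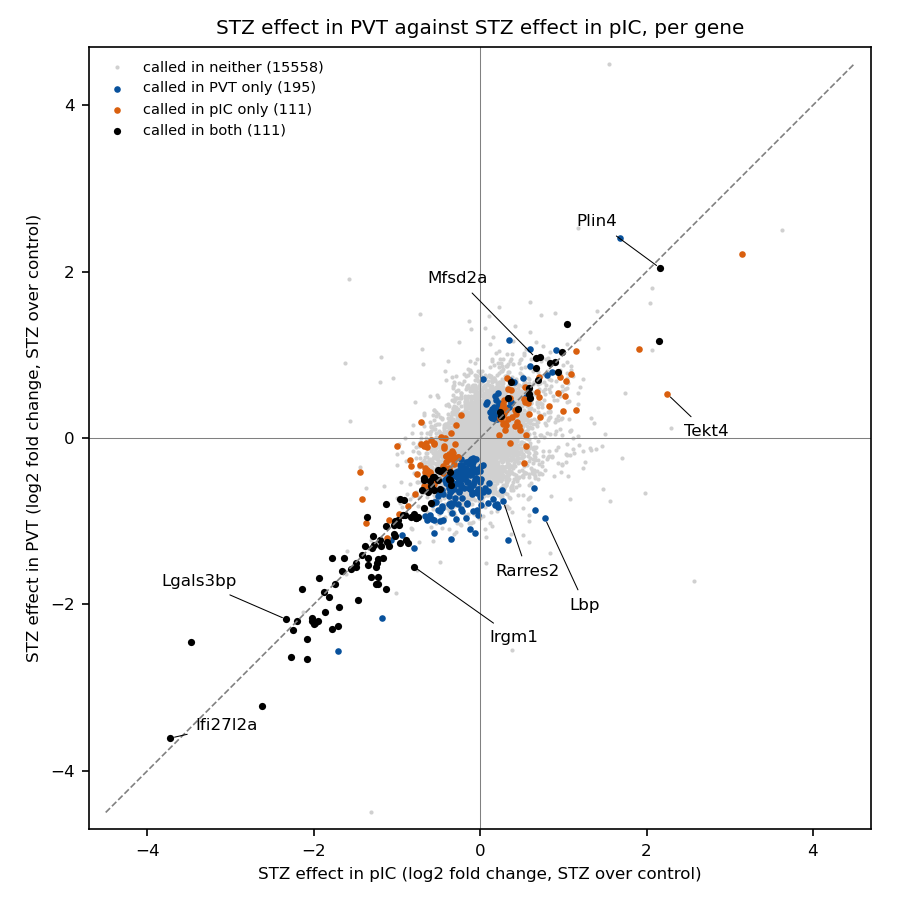
Each point is 1 of the 15975 genes, with its log2 fold change of STZ over control in pIC on the horizontal axis and in PVT on the vertical axis; colours mark the 195 genes called in PVT only, the 111 called in pIC only and the 111 called in both, the dashed line is equality, and values beyond 4.5 are drawn at the edge. The genes called in both regions lie along the line of equality, mostly in the lower left, while Rarres2, Lbp and Tekt4 lie away from it.

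Rarres2 (ENSMUSG00000009281), which encodes the secreted chemoattractant chemerin, had the lowest p of the interaction. PVT control libraries held 24.0, 19.5, 25.4 and 28.8 CPM, and the 6 PVT STZ libraries ran from 12.8 through a median of 14.2 to 16.0 CPM. In pIC, where the gene was low, controls held 2.68, 2.46, 2.74 and 2.48 CPM and STZ libraries 2.28, 3.17 and 3.61 CPM as lowest, median and highest. Every PVT STZ library lay below every PVT control, whereas the pIC groups overlapped. Rarres2 fell by 0.76 on the log2 scale in PVT (adjusted p = 0.00288) and had a fold change of 0.28 in pIC (adjusted p = 0.4933). The difference was -1.04 (95% interval -1.38 to -0.69, adjusted p = 0.0648 in edgeR and 3.85e-04 in DESeq2), and edgeR gave -1.13 without PVT control replicate 2 (adjusted p = 0.00841) and -1.11 without pIC STZ replicate 1 (adjusted p = 0.00573).

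Lbp (ENSMUSG00000016024) encodes the lipopolysaccharide-binding protein that hands bacterial lipid to CD14. It stood at 41.0, 31.6, 27.4 and 36.4 CPM in PVT controls and at 11.9, 18.996 and 20.9 CPM (lowest, median, highest) in PVT STZ libraries, with no overlap. In pIC, controls held 1.16, 0.821, 1.76 and 0.781 CPM and STZ libraries 1.17, 2.05 and 2.24 CPM, with overlap at the low end. Lbp fell by 0.96 in PVT (adjusted p = 0.0208), a call lost without PVT control replicate 1 or 4 (adjusted p 0.0624 to 0.0708) and without the 4 libraries lowest in thalamus markers (0.156). Its pIC value was 0.78 (adjusted p = 0.191), and the difference was -1.75 (-2.41 to -1.09, adjusted p = 0.170 in edgeR, 2.78e-04 in DESeq2).

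Tekt4 (ENSMUSG00000024175), a filament protein of ciliary and flagellar microtubules, had its STZ call in the other region, where its counts were low. pIC controls held 0.491, 0.290, 0.537 and 0.367 CPM and pIC STZ libraries 1.33, 2.10 and 2.61 CPM, without overlap. In PVT, controls held 3.61, 1.86, 3.38 and 3.72 CPM and STZ libraries 3.43, 4.51 and 5.55 CPM, with overlap. The gene rose by 2.25 on the log2 scale in pIC (adjusted p = 3.46e-04) and had 0.53 in PVT (adjusted p = 0.221). The difference of -1.72 (-2.44 to -1.01) had an adjusted p of 0.229 in edgeR, 0.0176 in DESeq2 and 0.0371 in edgeR without PVT control replicate 2. The fourth DESeq2 call, 2410004P03Rik (-1.52, adjusted p = 0.0176), is named because of that count.

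Slfn2 (ENSMUSG00000072620), a schlafen-family gene of immune cells, and Trpv4 (ENSMUSG00000014158), an osmosensitive cation channel found in choroid plexus epithelium, complete the 5 genes of smallest p with the lower effect in PVT. Slfn2 was at 4.34, 4.38, 5.77 and 4.36 CPM in PVT controls and at 1.96, 2.13 and 2.57 CPM in PVT STZ libraries, against 6.79, 7.15, 8.01 and 7.53 CPM and 5.38, 5.98 and 9.01 CPM in pIC. Only the PVT groups of Slfn2 were separate, with a fall of 1.09 (adjusted p = 0.00146), a pIC value of -0.12 (adjusted p = 0.834) and a difference of -0.96 (-1.42 to -0.51, adjusted p = 0.622). Trpv4 stood at 14.9, 11.1, 9.15 and 11.1 CPM in PVT controls and at 5.22, 7.52 and 8.32 CPM in PVT STZ libraries, and had -0.72 in PVT (adjusted p = 0.0552), 0.58 in pIC (adjusted p = 0.345) and a difference of -1.298 (-1.91 to -0.68, adjusted p = 0.622).

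The genes of smallest p in the other direction, with the higher effect in PVT, had smaller differences. Fstl4 (ENSMUSG00000036264), a follistatin-like secreted protein, held 7.02, 9.08, 6.85 and 5.84 CPM in PVT controls and 10.8, 11.4 and 13.5 CPM in PVT STZ libraries. In pIC, its controls held 18.9, 17.5, 18.96 and 20.1 CPM and its STZ libraries 14.4, 19.3 and 24.2 CPM. The PVT groups were separate and the pIC STZ libraries lay on both sides of their controls. Fstl4 rose by 0.70 in PVT (adjusted p = 0.0151), lost without PVT control replicate 1 (adjusted p = 0.0552) and without the 4 libraries lowest in thalamus markers (0.0538), and the difference was 0.67 (0.31 to 1.02, adjusted p = 0.767).

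Srxn1 (ENSMUSG00000032802), the sulfiredoxin that restores oxidised peroxiredoxins, was above all controls in every STZ library of both regions. It went from 93.8, 91.7, 102 and 92.5 CPM to 121, 136 and 154 CPM in PVT, and from 109, 114, 115 and 108 CPM to 117, 128 and 140 CPM in pIC. The rise of 0.54 in PVT passed the test (adjusted p = 0.0023, 0.1104 without the 4 libraries lowest in thalamus markers), the value of 0.21 in pIC did not (adjusted p = 0.0738), and the difference was 0.33 (0.15 to 0.51). Cdk5r1 (ENSMUSG00000048895), the p35 activator of the neuronal kinase CDK5, had 0.28 in PVT and -0.09 in pIC, Map3k14 (ENSMUSG00000020941), the NF-kB inducing kinase, 0.19 and -0.60, and Vstm5 (ENSMUSG00000031937) 0.30 and -0.23. None of these 6 regional values passed the test, and the differences were 0.36, 0.79 and 0.53 with adjusted p-values of 0.789 to 1. Map3k14 libraries of pIC did not overlap, at 4.73 to 6.79 CPM in controls and 2.62 to 4.61 CPM after STZ.

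**Figure D2:**
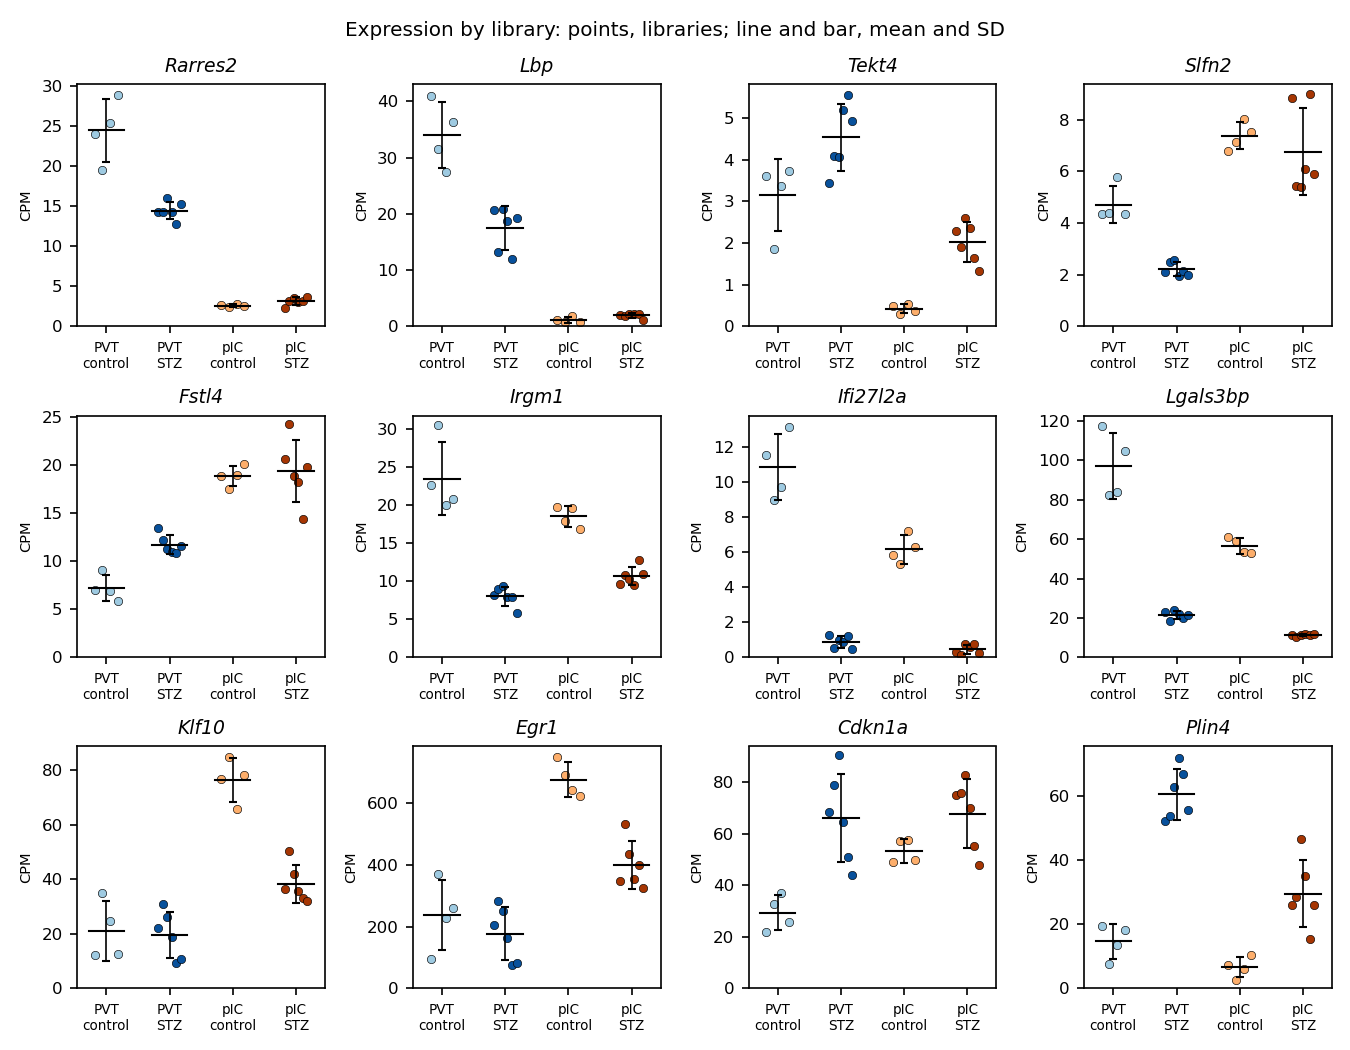
Expression in CPM (linear axis) of 12 genes in each library, by region and treatment; points are libraries, the line is the mean and the bar 1 SD (4 control and 6 STZ libraries in each region). Rarres2, Lbp and Slfn2 separate the groups in PVT only and Tekt4, Klf10 and Egr1 in pIC only, while Ifi27l2a, Lgals3bp, Irgm1 and Plin4 separate them in both regions.

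**Figure D3:**
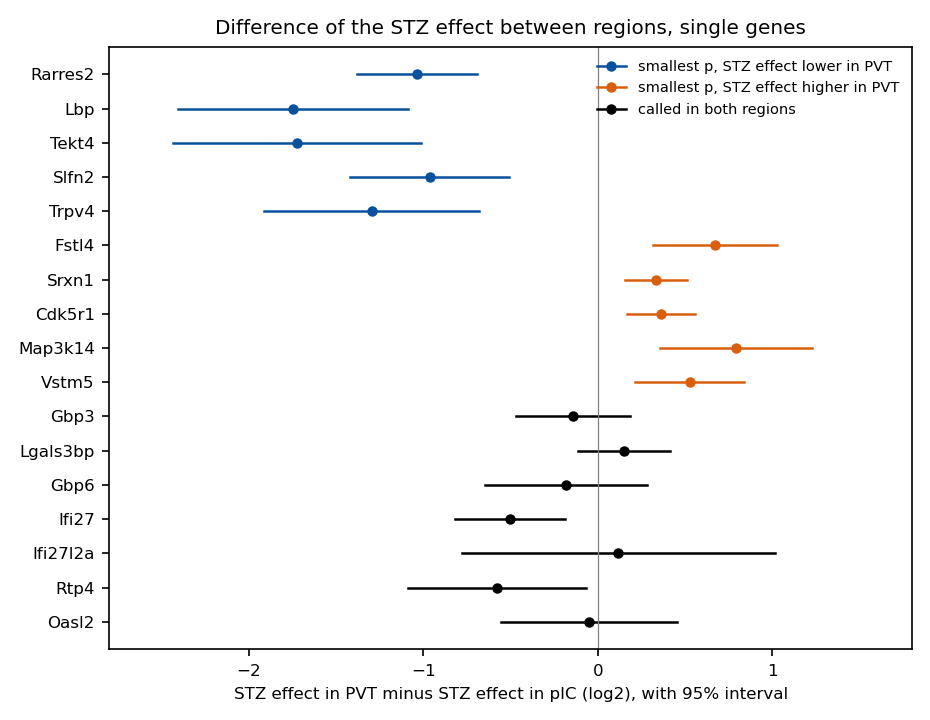
Difference of the STZ effect between regions (log2, PVT minus pIC) with its 95% interval for the 5 genes of smallest p in each direction and 7 of the genes called most firmly in both regions. The first 5 run from Tekt4 and Lbp at about -1.7 to Slfn2 at -0.96, and 5 of the 7 genes called in both regions have an interval that includes 0.

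The STZ response that the regions shared was led by the interferon-stimulated genes. Of 37 listed genes tested, 34 fell in PVT, 30 fell in pIC and 30 fell in both, against 1.54%, 0.945% and 0.576% of all genes tested. The list medians were -1.496 in PVT and -1.302 in pIC against 0.00 over all genes tested. The median difference between regions was -0.18 (-0.09 without pIC control replicate 2), with 27 of 37 genes on the side of the larger fall in PVT and 4 of them at an unadjusted p under 0.05 (edgeR), beside 7769 of 15975 genes on that side overall. Leaving out any 1 library gave 31 to 33 such calls in PVT and 28 to 31 in pIC, and 25 remained in number without the 4 libraries lowest in thalamus markers.

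Ifi27l2a (ENSMUSG00000079017), a small interferon-induced membrane protein gene, fell from 8.99 to 13.1 CPM in PVT controls to 0.448 to 1.25 CPM after STZ, and from 5.31 to 7.23 CPM to 0.125 to 0.761 CPM in pIC. Its changes of -3.61 and -3.72 differed by 0.12, with a wide interval of -0.78 to 1.01. Lgals3bp (ENSMUSG00000033880), a secreted galectin-binding glycoprotein, fell from 117, 82.6, 84.1 and 105 CPM to 18.4, 21.8 and 23.8 CPM in PVT and from 61.1, 59.1, 53.3 and 53.1 CPM to 10.4, 11.5 and 11.6 CPM in pIC. Its controls were higher in PVT than in pIC, and its falls of 2.18 and 2.33 differed by 0.15 (-0.11 to 0.42). Oasl2 (ENSMUSG00000029561), of the oligoadenylate synthase family, fell by 2.31 and 2.25, a difference of -0.05 (-0.56 to 0.45).

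For some interferon genes the fall was nominally larger in PVT. Ifi27 (ENSMUSG00000064215) went from 79.2 to 109 CPM in PVT controls to 20.7 to 30.5 CPM, and from 46.9 to 59.7 CPM to 19.3 to 23.5 CPM in pIC. Its changes were -1.76 in PVT and -1.26 in pIC, and the difference was -0.50 (-0.82 to -0.19, unadjusted p = 0.00326, adjusted p = 1). Rtp4 (ENSMUSG00000033355), a receptor transporter protein, had -2.65 and -2.08 (difference -0.58, -1.09 to -0.07). Ifih1 (ENSMUSG00000026896), the cytosolic double-stranded RNA sensor MDA5, fell by 1.14 in PVT (adjusted p = 0.00125) and had -0.56 in pIC (adjusted p = 0.0554), with every STZ library of both regions under the controls.

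The guanylate-binding proteins and immunity-related GTPases, interferon-induced enzymes that act on the membranes around intracellular microbes, moved with them. Of 14 tested, 12 fell in PVT, 13 in pIC and 11 in both, against 1.54%, 0.945% and 0.576% of all genes tested. The list medians were -1.86 and -1.31. Of the differences 13 of 14 were negative (7769 of 15975 over all genes tested), with a median of -0.19. Members of this family can be nearly identical in sequence, so their separate counts are uncertain where a read fits more than 1 of them. Without the 4 libraries lowest in thalamus markers 7 were called in PVT and the median difference was -0.06, as it was without PVT control replicate 2.

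Irgm1 (ENSMUSG00000046879), an immunity-related GTPase that regulates the other members, had the smallest interaction p of this list. It stood at 22.7, 30.6, 20.0 and 20.8 CPM in PVT controls and at 5.79, 8.11 and 9.33 CPM after STZ, and at 19.7, 17.9, 19.6 and 16.9 CPM in pIC controls and 9.50, 10.6 and 12.9 CPM after STZ. The PVT controls lay just above the pIC controls, both STZ groups were lower than their controls with no overlap, and the PVT STZ libraries all lay below the lowest pIC STZ library. Irgm1 fell by 1.55 in PVT and 0.79 in pIC, a difference of -0.75 (-1.13 to -0.38, unadjusted p = 4.22e-04, adjusted p = 0.743). Gbp3 (ENSMUSG00000028268) fell by 2.16 and 2.02 and Gbp6 (ENSMUSG00000104713) by 2.20 and 2.02, differences of -0.14 and -0.18 whose intervals included 0.

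Class I antigen presentation, the route by which cells show peptides to CD8 T cells, fell in the same way with a smaller amplitude. Of 19 tested genes 12 fell in PVT, 11 in pIC and 11 in both, against 1.54%, 0.945% and 0.576% of all genes tested. The list medians were -0.91 and -0.77, with a median difference of -0.11. That difference was -0.02 without PVT control replicate 4, -0.04 without pIC control replicate 3, -0.17 without pIC control replicate 2 and -0.21 without PVT control replicate 3. B2m (ENSMUSG00000060802), the light chain of every class I molecule, went from 183, 211, 161 and 237 CPM to 93.3, 101 and 112 CPM in PVT and from 191, 228, 167 and 173 CPM to 102, 110 and 121 CPM in pIC. The groups of both regions were separate at nearly equal levels, with changes of -0.96 and -0.77 and a difference of -0.19 (-0.47 to 0.09). The peptide transporter Tap1 had -1.4998 in PVT and -1.496 in pIC, both called, and the heavy chain H2-K1 fell by 1.18 and 1.02. The PVT count was 7 without PVT control replicate 1, STZ replicate 3 or STZ replicate 4 and 3 without the 4 libraries lowest in thalamus markers, and the pIC count was 7 without pIC control replicate 2. Class II genes had a median of -1.02 in PVT and -0.14 in pIC over 7 tested genes, with 0 called in either region at the adjusted threshold, none at an unadjusted interaction p under 0.05, and a median difference that went from -0.66 to -0.21 without PVT control replicate 4.

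The promoters of the genes that fell in both regions were searched for the interferon-stimulated response element, GAAANNGAAA, the sequence that interferon-activated transcription factors bind. In RefSeq promoters of 300 bases (build GRCm38.p6, from 250 before to 50 after the start, matched by symbol and read on either strand, overlapping matches included), 30 of the 68 genes lower in both regions that had a promoter held it (44.1%). It was held by 418 of the 11581 genes tested that had a promoter (3.61%), by 9 of 108 genes lower in PVT only (8.33%), by 6 of 42 lower in pIC only (14.3%) and by 0 of 16 higher in both. A gene was counted if any of its promoters held the element. Of the 92 genes lower in both regions, 24 had no entry. A match is a description of the letters and not a bound site. The 150 bases before the start of 4 such genes are shown with the element in capitals, as examples from the 3 lists that fell in both regions; on the minus-strand reading the element appears as TTTCNNTTTC.
Gbp3, chr3:142559894-142560043, plus strand: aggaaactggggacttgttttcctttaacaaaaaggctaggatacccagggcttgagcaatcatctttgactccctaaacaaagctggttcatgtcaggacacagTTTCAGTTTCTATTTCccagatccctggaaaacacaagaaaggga
Irgm1, chr11:48871421-48871570, minus strand: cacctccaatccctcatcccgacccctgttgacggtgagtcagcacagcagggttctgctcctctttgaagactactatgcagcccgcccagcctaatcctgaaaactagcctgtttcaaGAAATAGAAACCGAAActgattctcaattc
Isg15, chr4:156200819-156200968, minus strand: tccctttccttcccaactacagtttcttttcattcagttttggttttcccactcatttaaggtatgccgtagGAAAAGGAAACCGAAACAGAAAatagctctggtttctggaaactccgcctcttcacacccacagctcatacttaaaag
B2m, chr2:122147537-122147686, plus strand: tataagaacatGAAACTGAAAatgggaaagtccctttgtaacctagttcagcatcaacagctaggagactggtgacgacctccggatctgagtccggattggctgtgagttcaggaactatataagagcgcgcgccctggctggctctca
Gbp3 and Irgm1 each hold 2 overlapping elements, Isg15 holds 3 and B2m holds 1.

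Fewer genes rose in both regions, and glucocorticoid-induced genes were among them. Of 40 listed genes, 11 rose in PVT, 15 in pIC and 7 in both. Over all 15975 genes tested 0.376% rose in PVT, 0.444% in pIC and 19 genes in both. The list medians were 0.40 and 0.36, with a median difference of 0.07 (0.02 without pIC STZ replicate 6, 0.12 without PVT STZ replicate 6). The PVT count was 6 without PVT control replicate 4 or PVT STZ replicate 4 and 2 without the 4 libraries lowest in thalamus markers. Plin4 (ENSMUSG00000002831), a lipid droplet coat protein, went from 19.4, 7.59, 13.4 and 18.4 CPM to 52.1, 59.3 and 72.1 CPM in PVT and from 7.28, 2.71, 6.01 and 10.4 CPM to 15.3, 27.3 and 46.7 CPM in pIC. Both regions were separated, with rises of 2.04 and 2.16 (adjusted p = 0.00138 and 0.0380), the pIC call being lost without any 1 of pIC control replicates 1, 2 and 3 or STZ replicates 1, 2, 4 and 6 (0.0638 to 0.114). Fkbp5 (ENSMUSG00000024222), a co-chaperone of the glucocorticoid receptor, rose by 0.80 in PVT and 0.94 in pIC, with all STZ libraries above the controls. Its PVT call (adjusted p = 0.0226) was lost without any 1 of the 4 PVT controls or PVT STZ replicate 4 (0.0513 to 0.0744) and without the 4 libraries lowest in thalamus markers (0.217).

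Mfsd2a (ENSMUSG00000028655), the lysolipid transporter of brain endothelium, was the rising gene called most firmly in both regions. It went from 21.6, 21.0, 24.1 and 24.5 CPM to 40.0, 43.6 and 52.0 CPM in PVT and from 23.9, 22.1, 22.7 and 24.9 CPM to 33.8, 36.6 and 41.3 CPM in pIC. The groups did not overlap in either region, and the rises of 0.96 and 0.67 differed by 0.30 (0.07 to 0.52, unadjusted p = 0.0131, adjusted p = 1). Htra1 (ENSMUSG00000006205), a secreted serine protease, rose by 0.67 and 0.37 with a difference of 0.30 (0.12 to 0.49).

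Within the same glucocorticoid list some members had their calls in 1 region. Cdkn1a (ENSMUSG00000023067), the cell cycle inhibitor p21, went from 21.7, 32.9, 36.8 and 25.9 CPM to 44.1, 66.4 and 90.3 CPM in PVT, without overlap, and from 49.1, 57.0, 57.5 and 49.7 CPM to 47.7, 72.4 and 82.6 CPM in pIC, with overlap. It rose by 1.17 in PVT (adjusted p = 0.0258, lost without PVT control replicate 1, 2 or 4 or STZ replicate 1, 2 or 4 at 0.0504 to 0.0976, and without the 4 libraries lowest in thalamus markers at 0.209) and had 0.35 in pIC, a difference of 0.83 (0.27 to 1.39, adjusted p = 1). The other 3 named members had their calls in pIC. Cebpd (ENSMUSG00000071637), a transcription factor of acute-phase genes, rose by 1.00 in pIC (adjusted p = 0.00603) and had 0.33 in PVT. Angptl4 (ENSMUSG00000002289), an inhibitor of lipoprotein lipase, rose by 1.16 in pIC (adjusted p = 0.0155, lost without pIC control replicate 2, 3 or 4) and had 0.34 in PVT. Ucp2 (ENSMUSG00000033685), a mitochondrial carrier, rose by 0.53 in pIC (adjusted p = 0.0343, lost without any 1 pIC control or STZ replicate 1 or 4 at 0.0535 to 0.131, and with all 20 libraries in 1 fit at 0.223) and had -0.30 in PVT. Their differences were -0.67, -0.81 and -0.83, each with an adjusted p of 1.

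Ependymal genes had a lower STZ effect in PVT than in pIC in every tested member, although in edgeR no single difference passed the test with all libraries in the comparison (Rarres2 is in the list). Ependymal cells line the ventricles with motile cilia, and of 18 marker genes in the table, 10 were counted well enough in both regions to be tested, the other 8 failing the low-count filter in at least 1. All 10 had a negative difference, with a median of -0.76, and 7 had an unadjusted p under 0.05, against 431 of 15975 genes (2.7%) on that side. In PVT 7 of the 10 fell (Rarres2, Cfap54, Tekt1, Rsph1, Foxj1, Dynlrb2 and Ak7), against 1.54% of all genes tested, with a list median of -0.66. In pIC the median was 0.11 with 0 called in edgeR. This PVT count rested on single libraries: it was 1 without PVT control replicate 1 or 4 or STZ replicate 1, 2 without PVT control replicate 3 or STZ replicate 2 or 5, 4 and 3 when STZ replicates 3 and 4 were left out in turn, and 1 without the 4 libraries lowest in thalamus markers, whereas the median difference stayed between -0.86 and -0.59 in every alternative tried.

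Foxj1 (ENSMUSG00000034227), the transcription factor for motile cilia, stood at 43.0, 30.5, 32.2 and 38.2 CPM in PVT controls and at 17.9, 23.8 and 26.8 CPM after STZ. In pIC it was low, at 3.22, 4.59, 4.35 and 2.43 CPM and 3.06, 4.06 and 6.44 CPM. The PVT groups were separate and the pIC groups overlapped. It fell by 0.62 in PVT (adjusted p = 0.0323, lost without PVT control replicate 1, 3 or 4 or STZ replicate 1, 4 or 5 at 0.0518 to 0.102, without the 4 libraries lowest in thalamus markers at 0.103, in limma-voom at 0.0550 and with all 20 libraries in 1 fit at 0.0505) and the difference was -0.89 (-1.47 to -0.30, unadjusted p = 0.00485). Rsph9 (ENSMUSG00000023966), a radial spoke protein of motile cilia outside the marker list, fell by 0.61 in PVT and had -0.03 in pIC (difference -0.58, -0.86 to -0.30, unadjusted p = 3.31e-04, adjusted p = 0.661). The PVT calls of Rsph9 (adjusted p = 0.0522) and Foxj1 were lost with the replicate number as a block across treatments. Tekt4, the ciliary gene described above and also outside the list, had 0.53 in PVT. Summed over the 18 markers, PVT held 174 to 234 CPM in controls and 107 to 152 CPM after STZ, pIC held 13.3 to 18.6 and 13.6 to 26.8 CPM, and no marker was at 0 in all libraries of a group. In punches of tissue, fewer ependymal cells and less RNA per cell cannot be told apart, and the share of ventricle wall taken with each punch was not measured.

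Choroid plexus genes, whose epithelium secretes cerebrospinal fluid, had 11 of 20 members tested. All 11 had a negative difference (median -0.68) and 4 an unadjusted p under 0.05, against 2.7% of all genes tested on that side. In edgeR 0 were called in either region. The list medians were -0.66 in PVT and 0.00 in pIC. Enpp2 (ENSMUSG00000022425), the autotaxin enzyme of choroid plexus and oligodendrocytes, had -0.68 in PVT (adjusted p = 0.138) and 0.00 in pIC, with all PVT STZ libraries (598 to 1184 CPM) under the PVT controls (1207 to 1986 CPM). Ttr (ENSMUSG00000061808), the thyroxine carrier of choroid plexus, had a difference of -2.31 (-5.02 to 0.40), which was 0.07 without pIC STZ replicate 3, a library with 117.6 CPM where the other pIC STZ libraries had at most 8.83. Summed choroid plexus markers were 4431 to 8520 CPM in PVT controls, 2149 to 4769 CPM in PVT STZ, and 243 to 403 CPM in pIC, and no marker was at 0 in all libraries of a group. Most of the pIC sum was Enpp2, with a mean of 217 CPM in pIC controls out of 269 CPM over the 11 tested genes. The other tested members together made up little of the pIC sum, so their differences set PVT against low pIC counts.

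Myelin genes of oligodendrocytes differed in the same direction by less. All 24 tested had a negative difference, with a median of -0.25 (-0.11 without pIC STZ replicate 3, -0.12 without the 4 libraries lowest in thalamus markers), but 1 of them, Enpp2, was at an unadjusted p under 0.05. In PVT 6 of the 24 fell (Cnp, Mog, Fa2h, Trf, Opalin and Sox10), against 1.54% of all genes tested, and 0 were called in pIC in edgeR. The list medians were -0.31 in PVT and -0.05 in pIC. The PVT count was 2 without PVT control replicate 1 and 0 without the 4 libraries lowest in thalamus markers. Opalin (ENSMUSG00000050121), a membrane protein of mature oligodendrocytes, stood at 32.4, 43.3, 37.0 and 30.3 CPM in PVT controls and at 10.3, 16.4 and 21.5 CPM after STZ, with no overlap, and it fell by 1.17 in PVT, a call lost without the 4 libraries lowest in thalamus markers (adjusted p = 0.206). Its pIC value was -0.93 (adjusted p = 0.131) and the difference -0.23 (-0.91 to 0.45). The call in PVT alone thus came without a detected difference between regions, although the interval still holds differences of either sign. Mog (ENSMUSG00000076439), a protein of the outer myelin surface, fell by 0.53 in PVT (adjusted p = 0.121 without those 4) and had -0.27 in pIC, while Mbp (ENSMUSG00000041607), myelin basic protein, had -0.14 and 0.12. Summed myelin markers were 11298 to 14125 CPM in PVT controls, 8885 to 11903 CPM in PVT STZ, 4248 to 5687 CPM in pIC controls and 3848 to 8001 CPM in pIC STZ libraries.

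**Figure D4:**
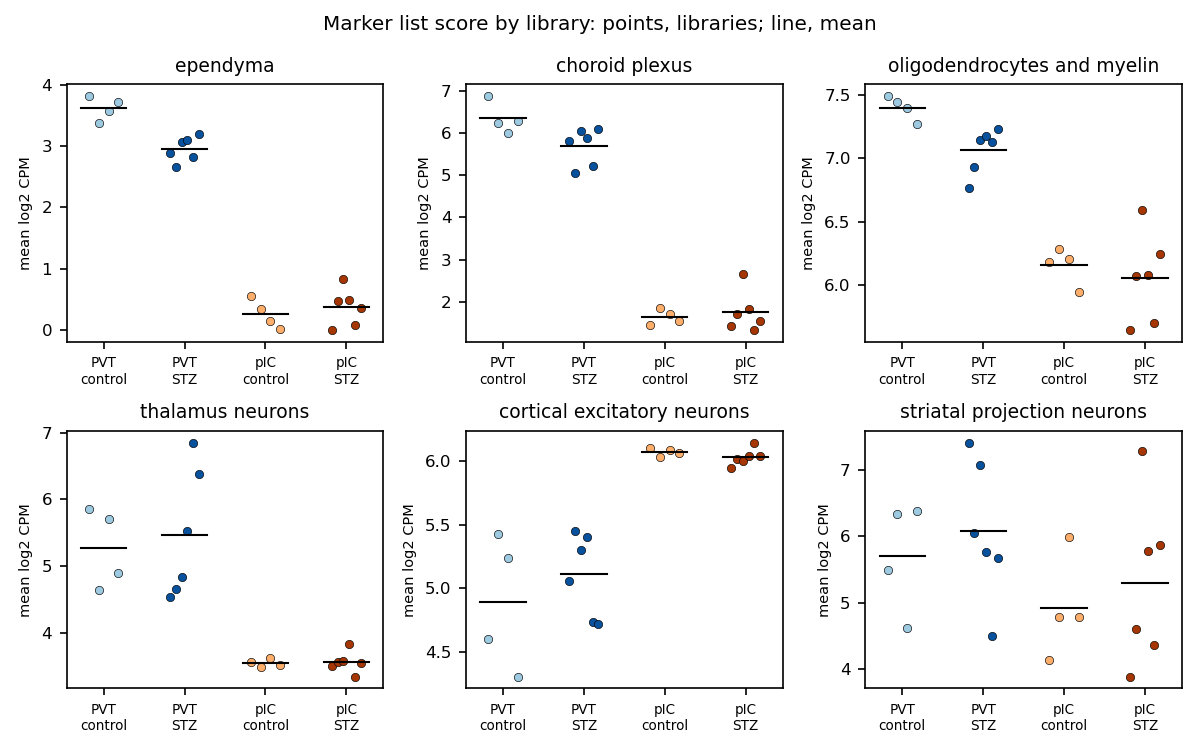
Mean log2 CPM of the tested genes of 6 marker lists in each library (points; line, mean of the group), by region and treatment. The ependyma and choroid plexus means of the PVT libraries are lower after STZ, with overlapping choroid plexus libraries, while thalamus and striatal neuron markers vary widely among libraries of the same group.

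Immediate early genes, transcription factors and signalling genes that neuronal activity switches on within minutes, had the opposite sign. Of 36 tested, 34 had a positive difference (median 0.45) and 7 an unadjusted p under 0.05, against 175 of 15975 genes (1.1%) on that side. In pIC 7 of the 36 fell (Klf10, Egr1, Egr2, Egr4, Nr4a3, Gadd45b and Fos), against 0.945% of all genes tested, with a list median of -0.46. In PVT 0 fell and Maff rose, with a median of -0.06. The pIC count was 3 without control replicate 1, 4 without control replicate 2 or 4 and 12 without STZ replicate 2. The median difference was 0.21 without the 4 PVT libraries lowest in thalamus markers.

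Klf10 (ENSMUSG00000037465), a zinc-finger repressor, had the call of smallest adjusted p among them in pIC. pIC controls held 76.9, 84.9, 65.6 and 78.3 CPM and pIC STZ libraries 32.0, 36.2 and 50.4 CPM, without overlap. PVT controls held 12.1, 34.97, 24.8 and 12.5 CPM and PVT STZ libraries 9.27, 20.4 and 30.8 CPM, a wide overlap. Klf10 fell by 1.00 in pIC (adjusted p = 9.49e-04) and had -0.10 in PVT, with a difference of 0.90 (-0.04 to 1.83, unadjusted p = 0.0598). When all 20 libraries shared 1 fit, and so 1 estimate of the spread, the pIC calls of Klf10, Egr1, Egr2, Egr4, Gadd45b and Fos were lost (adjusted p 0.162 to 0.523). Egr1 (ENSMUSG00000038418), a zinc-finger factor induced by synaptic activity, went from 750, 691, 641 and 621 CPM to 324, 377 and 534 CPM in pIC, while PVT controls already spanned 94.9 to 369 CPM and PVT STZ libraries 74.6 to 281 CPM. It fell by 0.76 in pIC (adjusted p = 0.0107, 0.0546 without pIC control replicate 2 and 0.447 with all 20 libraries in 1 fit) and had -0.43 in PVT, and the interval of the difference ran from -0.72 to 1.37.

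The spread of these genes in PVT was wide, with a standard error of the STZ effect of 0.44 for Egr1, 0.62 for Egr2 and 0.49 for Egr4 against 0.13, 0.24 and 0.12 in pIC. Egr2 (ENSMUSG00000037868) fell by 1.44 in pIC (lost without pIC control replicate 1 or 4 at 0.0639 to 0.0644) and Egr4 (ENSMUSG00000071341) by 0.73 (lost without pIC control replicate 1 or 2 at 0.0502 to 0.0578). Nr4a3 (ENSMUSG00000028341), an orphan nuclear receptor, fell by 0.85 in pIC (lost without pIC control replicate 1 or 4 or STZ replicate 5 at 0.0557 to 0.0749). The pIC calls of Egr2, Nr4a3 and Fos were also lost with no low-count filter and with the replicate number as a block across treatments. Over the alternatives the difference ran from -0.006 to 1.39 for Egr2 and from -0.33 to 0.80 for Egr4, with 0 called. Gadd45b (ENSMUSG00000015312), a growth arrest and DNA damage gene, fell by 0.47 in pIC and had 0.01 in PVT (difference 0.48, 0.02 to 0.94, unadjusted p = 0.0428). Fos (ENSMUSG00000021250), a subunit of the AP-1 factor, had -0.82 in PVT and -0.87 in pIC, a difference of 0.05, and its pIC call (adjusted p = 0.0380) was lost without any 1 library but pIC STZ replicate 2 (0.0516 to 0.130). Maff (ENSMUSG00000042622), a small MAF factor, rose by 1.07 in PVT (adjusted p = 0.0202, 0.0610 without PVT control replicate 1 and 0.211 without the 4 libraries lowest in thalamus markers) and had 0.60 in pIC. Csrnp1 (ENSMUSG00000032515), a nuclear protein induced by AXIN1, had 0.61 in PVT and 0.06 in pIC, with the smallest interaction p of the list (0.00423, adjusted p = 1).

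Neuronal gene groups leaned the same way by small amounts. Of 30 synaptic vesicle and active zone genes 28 had a positive difference (median 0.17), as had 27 of 30 postsynaptic scaffold genes (0.22), 22 of 24 voltage-gated potassium channels (0.19) and 19 of 21 cortical excitatory neuron markers (0.18), against 8206 of all 15975 genes (median 0.00). None of these 4 lists had a member called in either region in edgeR, and at an unadjusted interaction p under 0.05 they had 0, 3, 1 and 0 members. Without PVT control replicate 4 the medians were 0.07, 0.12, 0.09 and 0.08, and that of the cortical markers was 0.04 without PVT control replicate 1. Cortical excitatory markers summed to 692 to 1558 CPM in PVT controls and 994 to 1620 CPM in PVT STZ libraries, and their part in these values was not tested. Thalamus neuron markers had a median difference of 0.43 over 18 tested genes with 0 called in edgeR, which was -0.01 without PVT STZ replicate 5 and 0.94 without the 4 libraries lowest in these markers.

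Grin2c (ENSMUSG00000020734), an NMDA receptor subunit, was the receptor gene with a call. It stood at 22.4, 23.7, 24.3 and 19.8 CPM in PVT controls and 27.8, 31.5 and 38.0 CPM in PVT STZ libraries, without overlap, and rose by 0.51 in PVT (adjusted p = 0.0183, lost without PVT control replicate 1 or 4 at 0.0614 to 0.0645 and without the 4 libraries lowest in thalamus markers at 0.197). Its pIC value was 0.18 and the difference 0.33 (0.10 to 0.56). Gabrd (ENSMUSG00000029054), the delta subunit of extrasynaptic GABA-A receptors, had 0.58 in PVT and -0.11 in pIC (difference 0.69, 0.23 to 1.16), and Dlgap3 (ENSMUSG00000042388), a postsynaptic scaffold, 0.60 and 0.16 (difference 0.44, 0.10 to 0.77), and none of these regional values passed the test. Igf1 (ENSMUSG00000020053), insulin-like growth factor 1, had 0.56 in PVT (adjusted p = 0.0578) with every STZ library above the controls, -0.05 in pIC, and a difference of 0.62 (0.24 to 0.99, unadjusted p = 0.00257, adjusted p = 1).

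Cholesterol and fatty acid synthesis genes had similar medians in both regions. Of 31 tested, 10 fell in pIC and 2 in PVT (Insig1 and Dhcr7), both of these also called in pIC. Over all genes tested 0.945% fell in pIC and 1.54% in PVT. The list medians were -0.22 in pIC and -0.18 in PVT, with a median difference of 0.05 (-0.02 without PVT control replicate 4). Insig1 (ENSMUSG00000045294), the sterol-sensing retention protein of the pathway, went from 85.2, 78.4, 85.1 and 75.9 CPM to 46.0, 58.4 and 68.0 CPM in PVT and from 80.2, 85.1, 88.0 and 79.2 CPM to 38.0, 52.5 and 61.3 CPM in pIC, separate in both. Its falls of 0.51 and 0.68 differed by 0.17 (-0.14 to 0.48). The PVT call of Insig1 was lost without PVT control replicate 1, 3 or 4 or STZ replicate 2, 3 or 4 (0.0501 to 0.0760) and without the 4 libraries lowest in thalamus markers (0.161). The list count rested on single libraries too, at 2 to 6 in pIC without any 1 of the controls or STZ replicates 1, 4 and 6, and at 0 or 1 in PVT without any 1 library.

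The remaining groups were described by their medians. Microglia markers had medians of -0.06 in both regions and a median difference of -0.02 over 18 genes, and oxidative phosphorylation genes a median difference of 0.01 over 40. Border macrophage markers had 0.61 in PVT and 0.59 in pIC over 7 genes. In each region 2 were called higher (Stab1 in both), against 0.376% of all genes tested in PVT and 0.444% in pIC. The PVT count was 1 when any of the 4 controls or STZ replicates 1, 2, 3 and 5 was left out and 0 without the 4 libraries lowest in thalamus markers, and the pIC count was 1 without control replicate 1 or 2. Cytosolic ribosomal protein genes had 45 of 47 differences negative, beside 7769 of 15975 over all genes tested, and 0 called in edgeR. Their median difference was -0.09, and 0.00 without PVT control replicate 4. Fatty acid oxidation genes had 26 of 30 negative (median -0.09), 5 of them at an unadjusted p under 0.05, against 2.7% of all genes tested on that side. Pituitary genes had the most extreme list median, -2.22 over 3 tested genes, which was 0.11 without PVT control replicate 4, the library with high growth hormone.

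**Figure D5:**
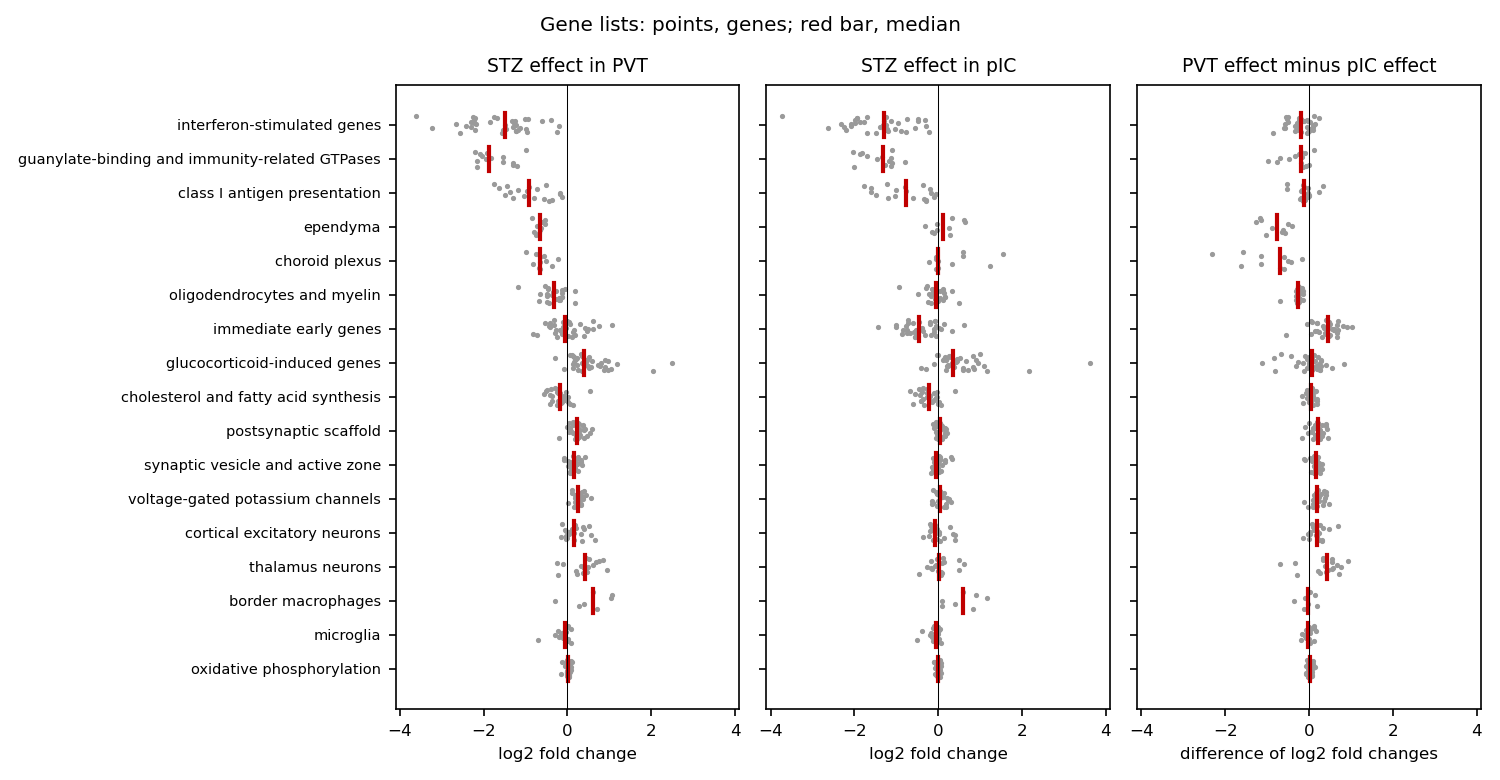
Log2 fold change of STZ over control in PVT (left) and pIC (middle) and their difference (right) for the tested genes of 17 lists; grey points are genes and red bars the list medians. The interferon, GTPase and class I lists lie below 0 in both regions and near 0 in the difference, ependyma and choroid plexus lie below 0 in the difference, and the immediate early genes lie above it.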

How the data were processed

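Raw counts per Ensembl gene (57180 identifiers, 1 column for each of the 20 libraries) were used as deposited. The submitters' processing notes name GRCm39 (mm39). Aligner, counting program and strand setting: not given in the sources used here. All values were whole numbers, no libraries of a group were duplicates (lowest chi-square per degree of freedom 3.79), mitochondrial genes took 5.57% to 7.01% of counts, and 0 columns were left unmapped. Symbols were found for 51884 identifiers. No gene positions are given for GRCm39, which was not among the references, so promoters came from RefSeq in GRCm38.p6 by symbol.

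The interaction was fitted in edgeR 4.0.16 (R 4.3.3) over all 20 libraries, with TMM scaling, the robust quasi-likelihood test and the genes that passed filterByExpr (minimum count 10, minimum total 15) in each region: 17076 passed in PVT, 16189 in pIC and 15975 in both. Each region was also fitted alone on its 10 libraries. Adjusted p is the Benjamini-Hochberg value over all 15975 genes, with calls under 0.05, and intervals are at 95%. CPM uses TMM-scaled library sizes, and list scores are the mean log2 CPM with a prior count of 2. The code was tested on simulated counts.

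Lists (50, with 963 of 966 genes in the table) were described by counts and medians, with no set test. The members and lists were chosen with earlier results of these data known. Genes were named by rule: the 5 of smallest interaction p in each direction (mean of at least 1 CPM in each region, established symbol), the 8 called in both regions with the smallest larger p, and the member of smallest interaction p of each list. Htra1, Plin4, Fkbp5, B2m, Foxj1, Rsph9, Ttr, Mog, Mbp, Opalin, Klf10, Egr1, Egr2, Egr4, Nr4a3, Gadd45b, Fos, Maff, Cdkn1a, Cebpd, Angptl4, Insig1, Ifih1, Tap1, H2-K1, the transcripts followed by label (Lcn2, Gh, Prl, Pomc, H2-Q6 and H2-Q7) and the genes listed by name within a count were chosen after their values were seen. Of the 8, 1 is not reported here. Alternatives were RLE and upper quartile scaling, 2 other filters, DESeq2 1.42.0, limma 3.58.1, a threshold of 0.1, blocks, all libraries in 1 fit, and leaving libraries out. List counts without libraries were added after seeing the data.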

Additional observations from a re-analysis of the deposited data

Results flagged for a closer look

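The values of most named genes and the scores of several marker lists were looked at in each group of libraries for a single library far from the others. Tap1, H2-K1, H2-Q6, H2-Q7, Lcn2, Gh, Prl and Pomc were among the genes not looked at. Dixon's 95% criterion was used in 228 groups of values. It marked 8, all of them gene values, and chance marks about 1 in 20. Each is given as its CPM.

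In pIC STZ libraries, Lbp stood low in replicate 6 at 1.17 against 1.92 to 2.24 in the others, Gadd45b stood low in replicate 6 at 12.6 against 15.1 to 16.5, Rsph9 stood high in replicate 4 at 7.05 against 5.63 to 6.07, and Ttr stood high in replicate 3 at 117.6 against 2.09 to 8.83. In pIC controls, Angptl4 stood high in replicate 1 at 2.59 against 2.07 to 2.15. In PVT controls, Slfn2 stood high in replicate 3 at 5.77 against 4.34 to 4.38. In PVT STZ libraries, Csrnp1 stood low in replicate 6 at 10.7 against 14.3 to 16.3, and Igf1 stood high in replicate 5 at 9.69 against 6.85 to 7.90.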

How the results depend on the processing

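The count of genes called for the interaction, 0, was 4 with DESeq2, 1 at an adjusted p under 0.1, 0 to 3 with 1 library left out and 0 under RLE and upper quartile scaling, both other filters, limma-voom, all blocks and without the 4 PVT libraries lowest in thalamus markers. The count of calls for the STZ effect in PVT, 306, was 798 with DESeq2, 659 with all 20 libraries in 1 fit, 631 at the 0.1 threshold, 66 without those 4 libraries and 140 to 302 with 1 left out. The count for the STZ effect in pIC, 222, was 466 with DESeq2, 371 with limma-voom, 407 at the 0.1 threshold and 126 to 280 with 1 left out. The count called in both regions, 111, was 208 with DESeq2, 50 without the 4 libraries and 80 to 121 with 1 left out. The correlation of the regional effects, 0.517, was 0.583 over genes of at least 1 CPM and 0.882 over genes called in either region. Upper quartile scaling called 51 higher and 301 lower in PVT, against 60 and 246. The causes were not tested.

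Some small interaction values changed sign. Without the 4 libraries Gbp6 was 0.062, Ifi27l2a -0.049, Egr1 -0.11, Egr2 -0.0058, Egr4 -0.33 and Fos -0.20; with limma-voom Oasl2 was 0.081 and Plin4 0.24. With 1 library left out, Ifi27l2a ran from -0.091 to 0.33, Oasl2 from -0.19 to 0.079, Plin4 from -0.42 to 0.14, Ttr from -3.14 to 0.069 and Fos from -0.14 to 0.56. None of these differences was called. Of 52 regional calls of named genes, 28 held in all 19 alternatives of each and 0 changed sign.

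Equal labels in the 2 regions were checked for pairing. Deviations of same-label libraries correlated with r of -0.12 to 0.25, over 0.1 in 5 of 10. The best match was sought only among the 4 control or 6 STZ labels of the same treatment. With that, 5 of 10 libraries correlated best with their own label, more than random matching would give on average. The check does not decide whether equal labels mean the same mouse. The labels were not treated as pairs and the per-label permutation test was not run, although some transcripts described below followed the labels in part. A replicate block on the label, fixed or as a random effect (correlation 0.06), called 0 genes for the interaction. With the replicate number as a block across treatments, the interaction called 0, PVT 71, pIC 247 and both regions 55, and the median difference of the thalamus neuron list was -0.49 in place of 0.43. Depth limits the low genes: for genes of at least 1 CPM in each region the 95% interval of the difference reached a median of 0.29 (log2) either side, and over all genes 0.32.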

Other observations

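Some transcripts, chosen after their values were seen, followed in part the animal label shared by a PVT and a pIC library, which the labels do not say is the same mouse. Lcn2, an iron-siderophore binding protein of reactive astrocytes and of inflammation, was at 15.6, 13.9, 15.4, 3.72, 0.331 and 10.4 CPM in PVT STZ libraries 1 to 6 and at 21.9, 15.5, 15.8, 6.12, 0.508 and 11.7 CPM in pIC STZ libraries of the same labels. The fifth label was lowest and the fourth next lowest in both regions. Controls ran from 0.361 to 3.50 CPM in PVT and from 0.179 to 2.74 CPM in pIC. They did not follow the label throughout: the highest PVT control, of the fourth label, had 0.367 CPM in its pIC library. In edgeR the STZ effect on Lcn2 was 2.50 in PVT (adjusted p = 0.191) and 3.63 in pIC (adjusted p = 0.176).

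Growth hormone and prolactin transcripts were high in both libraries of the fourth control label. Growth hormone (Gh) was at 11985 CPM in PVT control replicate 4 and 35.6 CPM in pIC control replicate 4, prolactin (Prl) at 2130 and 2.30 CPM. The other libraries had at most 2.77 CPM of Gh and 0.454 CPM of Prl. Pro-opiomelanocortin (Pomc) was at 843 CPM in PVT control replicate 4, 5.93 CPM in pIC control replicate 4, and 8.57 CPM in PVT STZ replicate 5. The pIC library of that STZ label held 0.888 CPM of Pomc.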
